A study of Mus musculus with 8 samples.

Results

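The genes described here were the heat shock proteins, their J-domain and BAG partners, the chaperonin subunits and the heat shock transcription factor Hsf1, measured in mouse liver. They were chosen by a rule on gene symbols, set with earlier results of these data known. It took symbols beginning Hspa to Hspe or Dnaja to Dnajc with a number, and Hsp90aa1, Hsp90ab1, Hsph1 and Hsf1. It also took the Cct genes with Tcp1, and Bag1 to Bag6. The endoplasmic reticulum genes Hspa5, Dnajb9, Dnajb11 and Dnajc3 were left out. This gave 71 genes of the 11784 in the table. Although the group is called cytosolic, the symbols also took in genes of other compartments. At least 9 encode mitochondrial proteins (Hspa9, Hspd1, Hspe1, Dnaja3, Dnajc11, Dnajc15, Dnajc19, Dnajc28 and Dnajc30). At least 8 encode endoplasmic reticulum proteins (Hspa13, Dnajb12, Dnajb14, Dnajc1, Dnajc10, Dnajc14, Dnajc18 and Dnajc25), and neither list is meant to be complete. Poly(A) RNA was sequenced from the livers of 8 male C57BL/6J mice, an inbred strain, of which 4 ate a Control diet and 4 a Low AA diet. Both diets were defined mixtures in which free amino acids stood in for protein, and the Low AA diet held less amino acid and more carbohydrate at nearly the same fat. The mice were 9 weeks old when the diets began, ate them for 4 months, and were killed after an overnight fast of about 16 h. The Control mice are named F129, F2212, F7111 and F2110 and the Low AA mice H1126, H828, H817 and H1315, as in the labels, and values are given in that order. Each mouse was 1 replicate, and the groups speak for fasted males of 1 strain.

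Chaperones bind unfolded or unstable proteins and help them reach or regain their folded state. Hsp70 proteins do this in cycles of ATP binding and hydrolysis. These are driven by J-domain proteins, which hand over the client and speed up hydrolysis, and by nucleotide exchange factors such as Hsp110 and most BAG proteins. Hsp90 takes over partly folded kinases and steroid receptors, the ring-shaped chaperonin CCT folds actin and tubulin, and Hspd1 with Hspe1 forms the chaperonin of mitochondria. When unfolded proteins build up, as in heat, the factor HSF1 binds heat shock elements, inverted repeats of the letters GAA, and drives the inducible members strongly. In liver, an organ with a large output of secreted and metabolic proteins, the constitutive members Hspa8 and Hsp90ab1 are abundant at all times.

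The deposited values are scaled and rounded read counts, so they are called scaled read counts below. They summed to between 27876664 and 30799385 per mouse, with medians over genes between 433.0 and 449.0. These totals follow scaling and are not the exact sequencing depth. All 6 hepatocyte markers were in the table, with summed values of 2366720 to 2788406 in Control and 2569806 to 2830622 in Low AA mice, which fits the tissue label. The Control mouse F2212 stood apart in Cela1, a pancreas acinar gene, with 36587 against 130 to 288 in the other mice. Cela1 was the 1 listed gene of 8 acinar markers looked for. Every listed gene had at least 28 in its third-highest mouse, so an acinar gene high in F2212 alone would not be listed. The absence of the other markers thus says nothing about F2212. Diet differences are log2 fold changes of value + 1, Low AA minus Control, from limma over all 11784 genes with Benjamini-Hochberg adjustment, and a gene was called at an adjusted p under 0.05. The mice of 1 diet were separate animals, so p-values measure spread between animals. The mice were group housed and the labels used here name no cage, so cage and diet cannot be told apart.

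None of the 71 members was called between the diets, against 0.399% of all genes, that is 47 genes of which 12 were higher and 35 lower on Low AA. The smallest adjusted p among the members by limma was 0.254, for Hspb6, and no member was called at an adjusted p under 0.1 either. At an unadjusted p under 0.05 there were 5 members, or 7.04%, against 11.8% of all genes. Of these, 3 were higher on Low AA, Dnaja2, Dnajc25 and Dnajc11, against 5.13% of all genes, and 2 lower, Hspb6 and Hspb1, against 6.7%. The median difference was 0.003 on the log2 scale over the members, with 36 above and 35 below 0, and 0.0023 over all genes. In 3 members, or 4.23%, the 4 Low AA values did not overlap the 4 Control values, all of them higher on Low AA, while 6.81% of all genes were without overlap, 3.26% of them higher and 3.55% lower. Without F2212 no member was called, 5 had an unadjusted p under 0.05 against 12.4% of all genes, and 4 were without overlap against 11.7%. Together the members took between 0.75% and 1.08% of the summed values of a mouse, lowest in H1126 and highest in H828.

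**Figure D1:**
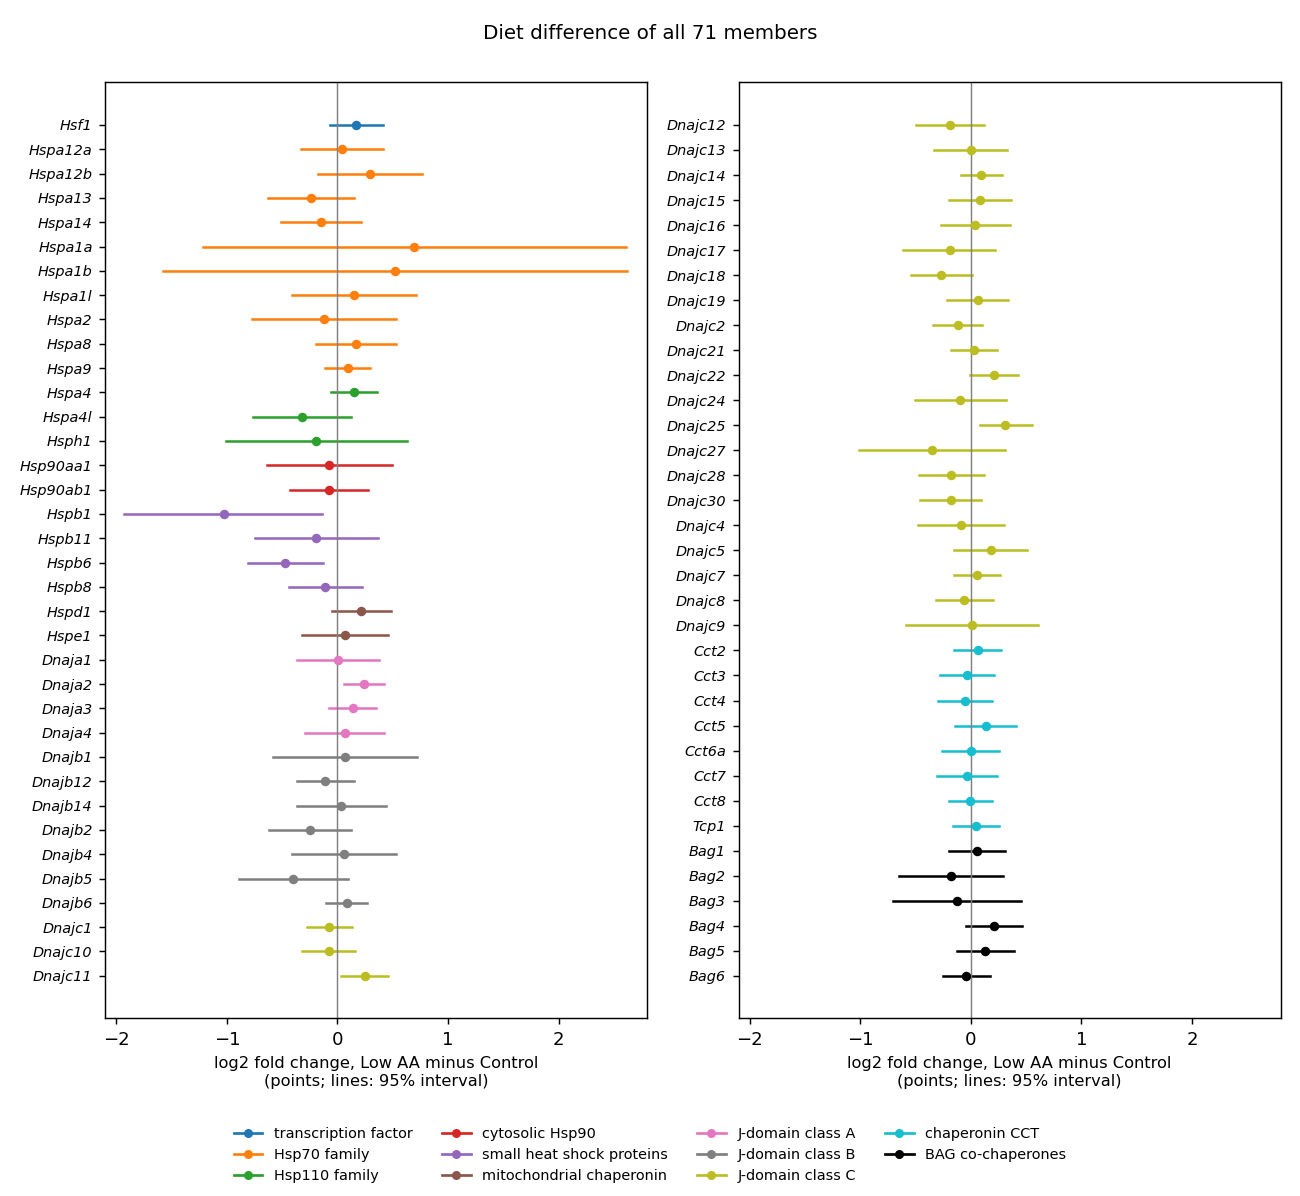
Log2 fold change of each of the 71 members, Low AA minus Control (horizontal axis), with points for the estimate of the limma fit and lines for its 95% interval, coloured by role. Most points lie near 0, the lines of Hspa1a and Hspa1b are the widest and reach 2.61 and 2.62, and the lines of Hspb1, Hspb6, Dnaja2, Dnajc25 and Dnajc11 do not cross 0.

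Hsf1, the transcription factor that switches on heat shock genes, was low and even. Its scaled read counts were 272, 290, 292 and 278 in the Control mice and 325, 344, 335 and 278 in the Low AA mice. The log2 difference was 0.17 with a standard error of 0.11 and an adjusted p of 0.591 by limma, and H1315 had the same value as F2110. HSF1 is known to be controlled mainly by its release from chaperones and by phosphorylation, which RNA levels do not show.

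Among the 10 Hsp70 genes the constitutive Hspa8, which folds new proteins and uncoats clathrin vesicles, had the highest level per length. Its mean was 15300 scaled counts per kb of exon in Control mice, against 4443 for Hspa9, the Hsp70 of mitochondria, 286 for the inducible Hspa1b and 7.67 for Hspa1a. Hspa8 read 67400, 71111, 60876 and 63829 in Control and 57012, 90342, 89719 and 64588 in Low AA mice. Thus H828 and H817 lay above all Control mice and H1126 below them, and the difference of 0.17 (SE 0.16, adjusted p = 0.76 by limma) was within the spread between mice. Hspa9 was among the steadiest members, at 18244 to 19597 in Control and 18926 to 21878 in Low AA mice, with a difference of 0.094 (SE 0.09).

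The pair Hspa1a and Hspa1b, which encode the strictly heat-inducible Hsp70, varied most of all members. Hspa1b read 2408, 338, 140 and 325 in the Control mice and 450, 1894, 1402 and 130 in the Low AA mice. F129, H828 and H817 were high and the other 5 mice low, so that the highest mouse exceeded the lowest 17.2-fold within Control and 14.6-fold within Low AA. Hspa1a read 63, 12, 9 and 7 in Control and 10, 62, 81 and 7 in Low AA mice, high in the same 3 animals. The third-highest value of each listed gene is at least 28, so Hspa1a is listed only through these 3 mice. Its wide spread and its order of mice are thus not independent of its being listed. On the log2 scale the SD between mice of a diet was 1.74 for Hspa1b and 1.55 for Hspa1a, each at the 99.8th percentile of all genes. The diet difference of Hspa1b was 0.52 with a standard error of 0.95 and a 95% interval from -1.58 to 2.62. It was 1.33 without F129, -0.014 without H828 and -0.031 without F7111. Hspa1a differed by 0.69 with a standard error of 0.86. The intervals are too wide to tell a fall to well under the Control level from a rise to several times that level.

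These 2 genes are near-identical copies on chromosome 17, and how the counting divided reads between them is uncertain. The 150 bases before their transcription starts, from RefSeq on GRCm38.p6, are identical at 149 of 150 bases. They are shown 5′ to 3′ because the 2 genes varied together, with capitals for a match to the heat shock element letters GAANNTTC. The stretches lie at chr17:34972157-34972306 for Hspa1a and chr17:34959239-34959388 for Hspa1b, both on the minus strand, and in both the match begins 104 bases before the start.
Hspa1a: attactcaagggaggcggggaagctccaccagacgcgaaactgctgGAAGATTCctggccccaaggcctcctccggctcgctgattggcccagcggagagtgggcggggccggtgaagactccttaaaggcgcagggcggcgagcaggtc
Hspa1b: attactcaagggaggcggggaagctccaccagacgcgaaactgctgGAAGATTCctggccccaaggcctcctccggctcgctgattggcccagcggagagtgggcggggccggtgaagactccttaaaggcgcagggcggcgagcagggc
Both genes carry this 1 match at the same place, and Hspa1b read between 15.6 and 46.4 times Hspa1a in every mouse.

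The other Hsp70 members were low or moderate in liver. Hspa13, a microsomal Hsp70, read 520 to 743 in Low AA and 553 to 881 in Control mice, with a difference of -0.24 (SE 0.18). Hspa14, which binds ribosomes, differed by -0.15 (SE 0.16). Hspa12a, Hspa12b, Hspa1l and Hspa2 all lay at or under 75 in every mouse, with differences of 0.04, 0.29, 0.15 and -0.12. None of the 10 had an unadjusted p under 0.05, the smallest being 0.197, and 7 were above 0 and 3 below.

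The Hsp110 genes encode large relatives of Hsp70 that exchange its nucleotide and, with J-domain proteins, help to dissolve aggregates. Hsph1, the inducible one, read 3064, 2150, 2054 and 1702 in Control and 1154, 3694, 2804 and 1133 in Low AA mice. The Low AA mice thus lay on both sides of the Control range, with H1126 and H1315 below all Control mice and H828 above them, a 3.26-fold range within the diet. The difference was -0.19 (SE 0.37, adjusted p = 0.894 by limma). Hspa4l read 509, 463, 425 and 547 in Control and 300, 566, 432 and 306 in Low AA mice, and differed by -0.32 (SE 0.20). Hspa4, the constitutive member, was much steadier, at 4051 to 4416 and 4296 to 5224, with a difference of 0.15 (SE 0.095).

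Cytosolic Hsp90 is made from Hsp90ab1, the constitutive gene, and Hsp90aa1, the more inducible one. Hsp90ab1 had a mean of 11271 scaled counts per kb of exon in Control mice and Hsp90aa1 of 2265. Hsp90aa1 read 10587, 9221, 8003 and 7802 in Control and 6085, 13831, 10033 and 5820 in Low AA mice. Hsp90ab1 read 35875, 34184, 34178 and 30964 in Control and 25422, 43355, 34281 and 27821 in Low AA mice. In both genes H828 was above and H1126 and H1315 were below every Control mouse. The Low AA range was 2.38-fold for Hsp90aa1 and 1.71-fold for Hsp90ab1, against 1.36-fold and 1.16-fold in Control mice, and the differences were -0.078 (SE 0.25) and -0.076 (SE 0.16). As a share of Hsp90ab1, not corrected for length, Hsp90aa1 was lowest in H1315 at 20.9% and highest in H828 at 31.9%.

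**Figure D2:**
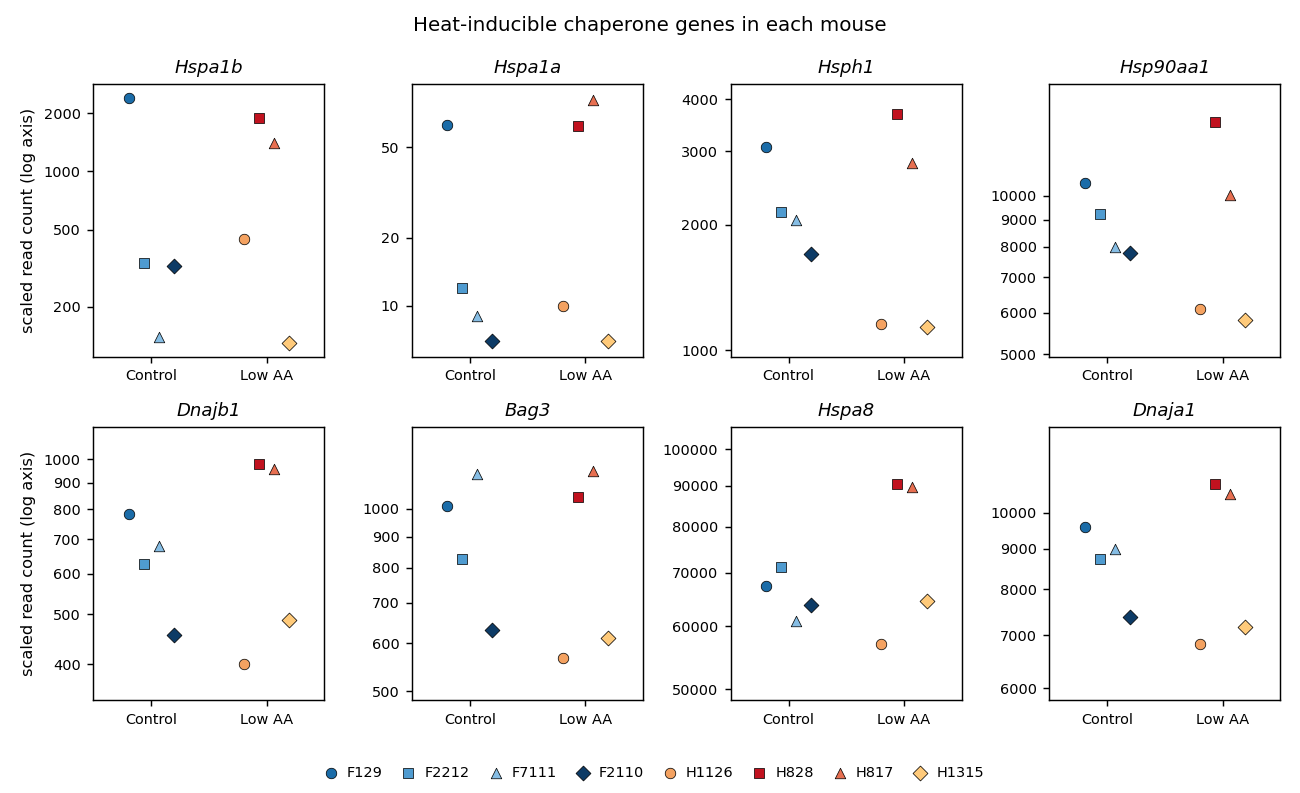
Scaled read count on a log axis (vertical) of 8 members of the heat-inducible list in each mouse, by diet, with 1 symbol and colour per mouse. Hspa8, described in the text as constitutive, is among them. H828 and H817 are the 2 highest Low AA mice in all 8 panels and H1126 and H1315 the 2 lowest, while F129 is the highest Control mouse in Hspa1b, Hspa1a, Hsph1, Hsp90aa1, Dnajb1 and Dnaja1.

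The order of the mice recurred across the heat-inducible members, a list of 15. The list was written from general knowledge, with earlier results of these data known. It holds Hspa1a, Hspa1b, Hspa8, Hsp90aa1, Hsp90ab1, Hsph1, Hspa4l, Dnaja1, Dnajb1, Dnajb4, Hspb1, Hspb8, Hspd1, Hspe1 and Bag3. Hspa8 and Hsp90ab1, described above as constitutive, are thus part of the list. H828 and H817 were the 2 highest of the 4 Low AA mice in 14 of the 15, or 93.3%, with Hspb8 the exception, and in 18.9% of all genes. These mice were pointed out after their values had been seen, so the counts are a description and no test was made. In the same 15 genes F129 was the highest Control mouse in 8, against 21.1% of all genes. Hspa1a, listed only through F129, H828 and H817, counts among both the 14 and the 8. The median over the 15 genes of a mouse's log2 deviation from the mean of all mice was 0.40 in H828, 0.29 in H817 and 0.23 in F129, and it was -0.39 in H1126 and -0.46 in H1315. F2212, F7111 and F2110 lay between, at 0.029, -0.026 and -0.14. Over all genes the same medians ran from -0.00073 to 0.015, which the scaling of the deposited values sets near 0. In the 56 members outside the list H828 and H817 were the highest pair in 35.7%. These 56 include the 8 CCT subunits, in which the pair was highest in 8 of 8, so the order was not particular to the list. The genes of the list were measured in the same 8 livers, so they are not independent of each other.

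Between the diets the 15 genes went both ways, with 8 differences above 0 and 7 below and a median of 0.003, and Hspb1 alone had an unadjusted p under 0.05. Dnajb1, the main J-domain partner of inducible Hsp70, read 782, 625, 678 and 457 in Control and 401, 978, 959 and 487 in Low AA mice, with a difference of 0.069 (SE 0.29). Dnajb4, a close relative, differed by 0.056 (SE 0.21), and the farnesylated Dnaja1 by 0.003 (SE 0.17). The median SD between mice of a diet was 0.36 over the list, 0.18 over the 71 members and 0.22 over all genes.

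**Figure D3:**
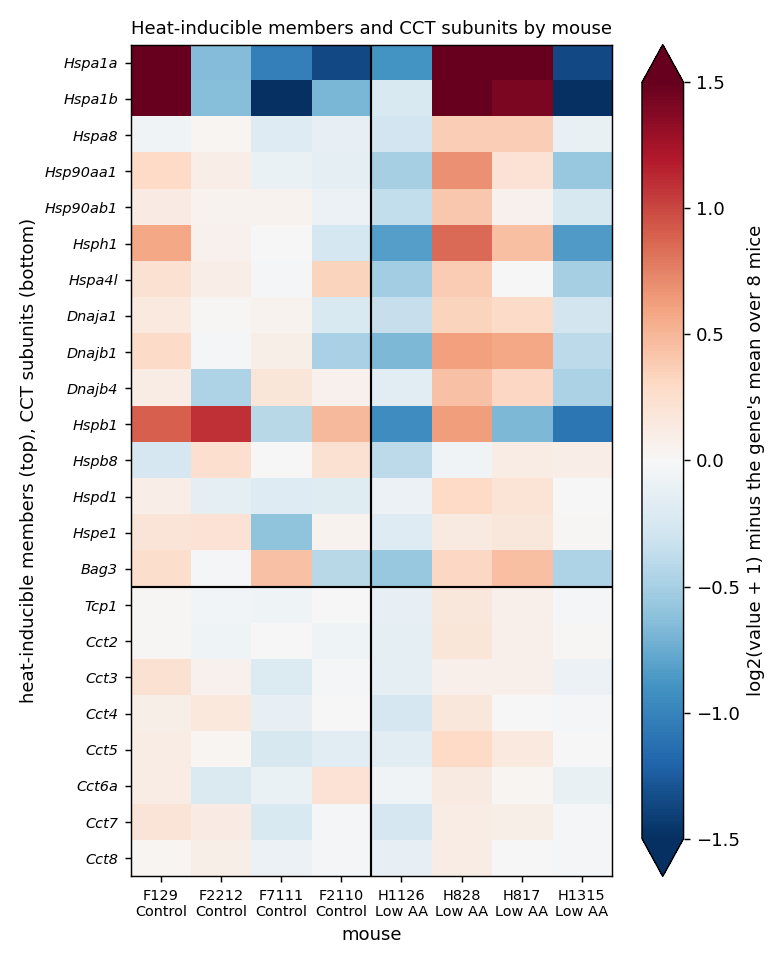
Log2(value + 1) of the 15 heat-inducible members (upper rows) and 8 CCT subunits (lower rows) in each of the 8 mice (columns, by diet), as the deviation from the gene's mean over all mice, with colours saturating at 1.5 in either direction. Each diet holds both red and blue columns among the inducible genes, with median deviations over the 15 inducible genes of 0.40 in H828 and -0.46 in H1315.

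The 4 listed genes with an Hspb symbol, of 8 looked for, all lay below 0, with a median of -0.33. Hspb11 is among them by its symbol only. The small heat shock gene Cryab, which the symbol rule did not take, differed by -0.22 (SE 0.19). Small heat shock proteins hold unfolding proteins in oligomers without using ATP. Hspb1, the Hsp27 of mouse, read 867, 992, 348 and 654 in Control and 243, 719, 291 and 218 in Low AA mice. H828 lay within the Control range and F7111 near the Low AA mice, so the diets overlapped, although the other 3 Low AA mice were below every Control mouse. The means were 715 ± 282 and 368 ± 236 (SD, n = 4 each). The log2 difference was -1.03, with a standard error of 0.40 and a 95% interval from -1.93 to -0.14, an unadjusted p of 0.0275 and an adjusted p of 0.34 by limma. Leaving out each mouse in turn, it stayed between -1.41 without H828 and -0.84 without F2212, and its unadjusted p was under 0.05 in 3 of the 8 fits.

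Hspb6, the Hsp20 known from smooth and heart muscle, read 334, 438, 432 and 312 in Control and 263, 320, 227 and 279 in Low AA mice. The only overlap was H828 at 320 above F2110 at 312. The difference was -0.47 (SE 0.15, unadjusted p = 0.0116, adjusted p = 0.254 by limma), and the unadjusted p was under 0.05 in all 8 fits that left out a mouse. Hspb8, which works with Bag3 in the autophagy of misfolded proteins, was the most abundant of the 4 per length, with 3492 scaled counts per kb in Control mice. It read 4956 to 7024 in Low AA and 5432 to 7691 in Control mice, with a difference of -0.11 (SE 0.15). Hspb11, which despite its name belongs to the intraflagellar transport machinery, differed by -0.19 (SE 0.25).

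Liver holds several cell types, and in bulk tissue fewer cells of a type and less RNA per cell cannot be told apart. Of 4 bile duct markers 3 were listed, with summed values of 141 to 234 in Control and 71 to 145 in Low AA mice. Krt19 and Sox9 among them had log2 differences of -0.87 and -1.05 with unadjusted p of 0.0274 and 0.0169 by limma, and neither was called. All 5 stellate cell markers were listed and summed to 7120 to 9174 in Control and 7440 to 9322 in Low AA mice. Col1a1 among them had a log2 difference of -1.07 (SE 0.28, unadjusted p = 0.0032, adjusted p = 0.148 by limma). It was lower in each Low AA mouse than in any Control mouse. The other stellate markers differed by -0.033 for Lrat, -0.017 for Dcn, -0.29 for Des and 0.16 for Reln. Des was the single listed gene of 4 muscle markers, at 106 to 177 and 96 to 124, and none of 3 adipocyte markers was listed. The 2 listed erythroid markers of 4, Hba-a1 and Alas2, summed to 3598 to 8753 in Control and 3096 to 5259 in Low AA mice. Hba-a1 had a log2 difference of -0.72 (unadjusted p = 0.0435 by limma) and Alas2 one of -0.49 (unadjusted p = 0.014 by limma), with Alas2 lower in each Low AA mouse than in any Control mouse, and neither was called. The part of these cell types in the values of Hspb1 and Hspb6 was not tested.

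**Figure D4:**
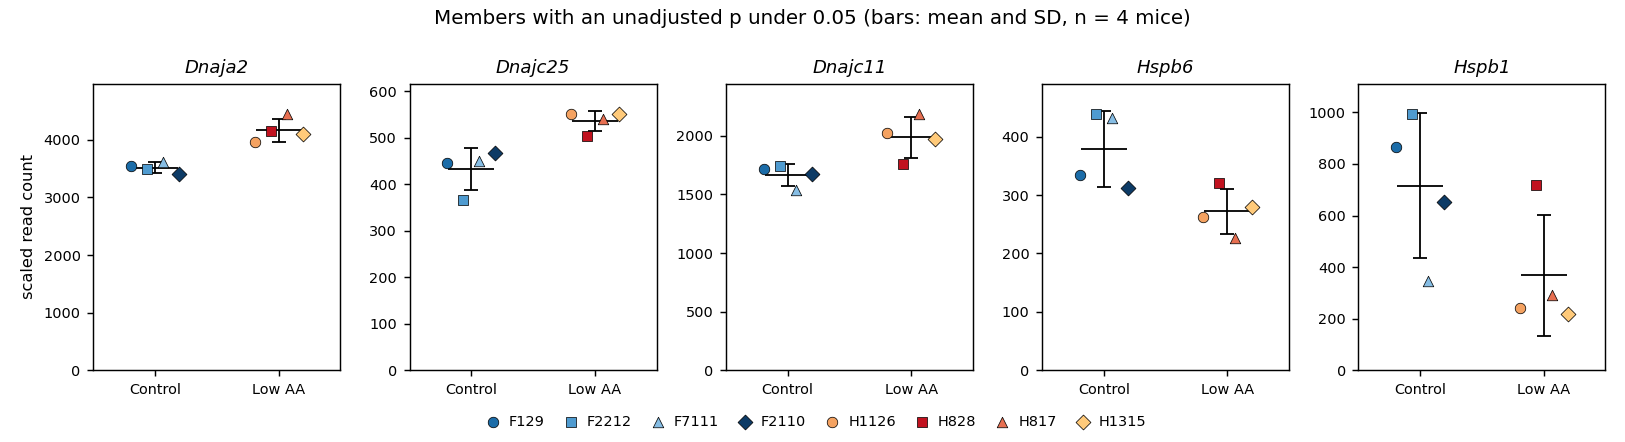
Scaled read count (vertical, from 0) in each mouse, by diet, of the 5 members with an unadjusted p under 0.05, with symbols for mice and black bars for the mean and SD of 4 mice. Dnaja2, Dnajc25 and Dnajc11 show no overlap between diets, while Hspb6 and Hspb1 overlap through H828.

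The promoter of Hspb1 held 2 matches to the heat shock element letters, in the 150 bases at chr5:135887769-135887918 on the plus strand of GRCm38.p6 (RefSeq), shown because this gene had the largest log2 difference in size. Capitals mark the 2 matches, which begin 117 and 97 bases before the start.
Hspb1: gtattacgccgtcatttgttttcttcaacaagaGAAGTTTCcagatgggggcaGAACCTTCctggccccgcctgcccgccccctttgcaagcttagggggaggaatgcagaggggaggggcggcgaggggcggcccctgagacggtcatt
Hspa1b, with 1 match, and Hspb1, with 2, both had a wide spread between mice of a diet, but Hspb1 was not high in H817, where Hspa1b was.

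Hspd1 and Hspe1 encode the mitochondrial chaperonin and its lid, and lie head to head on chromosome 1. Hspd1 read 21402, 18096, 17427 and 17625 in Control and 18814, 24554, 23099 and 20053 in Low AA mice, with a difference of 0.21 (SE 0.12, adjusted p = 0.54 by limma). Hspe1 read 4430, 4506, 2566 and 4040 in Control and 3405, 4280, 4383 and 3921 in Low AA mice, with a difference of 0.069 (SE 0.18). H828 and H817 were the highest Low AA mice in both, and F7111 was the lowest Control mouse in both. The ratio of Hspd1 to Hspe1, not corrected for length, ran from 4.02 in F2212 to 6.79 in F7111, so the 2 genes did not keep a fixed ratio.

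A run of heat shock element letters lies before the start of Hspe1 and before 1 of the 2 starts of Hspd1 in RefSeq. It lies after the other start of Hspd1, whose window held no match. The run is shown from each gene's own strand at chr1:55088053-55088082 (GRCm38.p6, RefSeq), minus for Hspd1 and plus for Hspe1. Capitals mark its 18 bases, in which units of GAA and TTC alternate.
Hspd1: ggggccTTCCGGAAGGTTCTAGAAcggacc
Hspe1: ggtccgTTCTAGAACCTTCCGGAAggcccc
The run is the same stretch of DNA read on opposite strands, beginning 144 bases before that start of Hspd1 and 89 before the start of Hspe1. The SD between mice of a diet was 0.16 for Hspd1 and 0.29 for Hspe1.

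J-domain proteins choose the clients of Hsp70 and set its pace. Those of class A, built like bacterial DnaJ, all had differences above 0, with a median of 0.10 over 4 genes. Dnaja2, a constitutive partner of Hspa8, read 3552, 3486, 3618 and 3403 in Control and 3958, 4145, 4440 and 4099 in Low AA mice. Each Low AA mouse lay above each Control mouse, and the means were 3515 ± 91.9 and 4160 ± 203 (SD, n = 4 each). The difference was 0.24 (SE 0.082, unadjusted p = 0.0139, adjusted p = 0.266 by limma). The unadjusted p was under 0.05 in 7 of the 8 fits that left out a mouse. Its SD between mice of a diet, 0.056, was at percentile 0.645 of all genes.

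Class B held 7 listed genes of 11, with a median of 0.033 and none with an unadjusted p under 0.05. Dnajb5 had the largest difference in size, -0.40 (SE 0.22), at 73, 79, 122 and 90 in Control and 55, 66, 60 and 95 in Low AA mice, where H1315 lay within the Control range. Class C, a mixed class in which the J domain is joined to many other parts, held 24 listed genes of 27, with differences from -0.35 to 0.31 and a median of -0.031. Of these 2 were without overlap. Dnajc25, a membrane protein, read 446, 367, 450 and 467 in Control and 550, 504, 541 and 550 in Low AA mice, with a difference of 0.31 (SE 0.11, unadjusted p = 0.0142, adjusted p = 0.267 by limma).

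Dnajc11, a protein of the mitochondrial membranes, read 1717, 1742, 1534 and 1673 in Control and 2023, 1760, 2182 and 1974 in Low AA mice. The nearest values, F2212 at 1742 and H828 at 1760, were close, and the difference was 0.25 (SE 0.097, unadjusted p = 0.0266, adjusted p = 0.336 by limma). Dnajc27 had the lowest difference of the class, -0.35, at no more than 54 in any mouse and with a standard error of 0.30. The 9 mitochondrial members named at the start had a median difference of 0.082, 7 above 0 and 2 below. The 8 endoplasmic reticulum members named there had one of -0.077, 3 above and 5 below. Neither median was tested.

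The 8 listed subunits of the chaperonin CCT, of 10 looked for, were even in both diets. Tcp1 and Cct2 to Cct8 form the 2 stacked rings that fold actin and tubulin. Tcp1 read 5252, 5025, 4931 and 5181 in Control and 4752, 5802, 5438 and 5091 in Low AA mice. Cct5, which had the largest difference of the 8, read 4637, 4367, 3620 and 3815 and then 3794, 5255, 4753 and 4293, a difference of 0.14 (SE 0.13). The other 7 lay between -0.053 for Cct4 and 0.06 for Cct2. The 95% intervals of all 8 lay between -0.31 and 0.41, that is from -19.1% to 33.2%, so larger differences than these lie outside the intervals, while smaller ones are not told apart from none. The sign of Cct6a, -0.0011, turned to 0.0024 with equal column totals.

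The SD between mice of a diet was between 0.085 and 0.18 for the 8 subunits. Small as the spread was, H828 and H817 were the 2 highest Low AA mice in 8 of 8, and F129 was the highest Control mouse in 5. The median log2 deviation over the 8 genes was 0.15 in H828, 0.071 in H817, 0.098 in F129 and 0.048 in F2212, and it was -0.14 in H1126, -0.11 in F7111, -0.022 in H1315 and -0.018 in F2110. H1315, the lowest mouse over the inducible list, was thus near 0 here.

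Of the 6 BAG genes, Bag1 to Bag5 encode factors that release nucleotide from Hsp70 and tie it to degradation or survival pathways. Bag3, the heat-inducible one, read 1012, 827, 1141 and 631 in Control and 568, 1048, 1157 and 613 in Low AA mice, with a difference of -0.13 (SE 0.26). Both diets thus had high and low mice, with 1.81-fold and 2.04-fold ranges. Bag4 differed by 0.21 (SE 0.11, unadjusted p = 0.0909), Bag5 by 0.13 and Bag1 by 0.056, and Bag2, at most 53 in a mouse, by -0.18. Bag6, which guards newly made membrane proteins, differed by -0.042 (SE 0.095).

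Heat shock element letters were looked for in the members' promoters. A promoter of 250 bases before and 50 after the start was found for 56 of the 71 members, and 18 of these, or 32.1%, held the letters GAANNTTC or TTCNNGAA, which read the same on both strands. Some genes have more than 1 start, and a gene counted when any of its promoters held the letters. The share was 14.2% among the 9378 listed genes with a promoter and 17% among all 27025 in the RefSeq table. Of the 12 heat-inducible members with a promoter 10 held a match, or 83.3%. A run of 3 alternating units, which contains the shorter match, was in 4 member promoters, those of Hspd1, Hspe1, Hsph1 and Dnajb6, or 7.14%, against 0.586% of the listed genes. The run of Hspd1 and that of Hspe1 are the same 18 bases, counted for each gene. Hspa1a and Hspa1b, identical at 149 of 150 bases, also count separately among the members with a match. The inducible list was written from knowledge of heat shock genes, so its share is not independent of these letters.

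Members with a match had a median SD between mice of a diet of 0.26, those with a promoter and no match 0.18, and those without a promoter entry 0.15. The ranges overlapped, from 0.06 to 1.74 with a match and from 0.053 to 0.52 without. Over all genes the median SD was 0.22. Of the 18 members with a match, 10 were on the heat-inducible list, and a link between match and spread was not tested. Dnajb6, a suppressor of protein aggregation picked out after its values were seen, held a run of 3 units yet was even, at 1825 to 2017 in Control and 1928 to 2094 in Low AA mice, with an SD of 0.06. Dnajb1 had no match in the window and an SD of 0.52. The run, in capitals, lies at chr5:29735846-29735870 on the plus strand with its neighbouring bases, before both starts of Dnajb6 in RefSeq and after that of a longer transcript in GENCODE.
Dnajb6: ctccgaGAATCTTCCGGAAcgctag
A match is a description of letters and not a measured binding site.

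**Figure D5:**
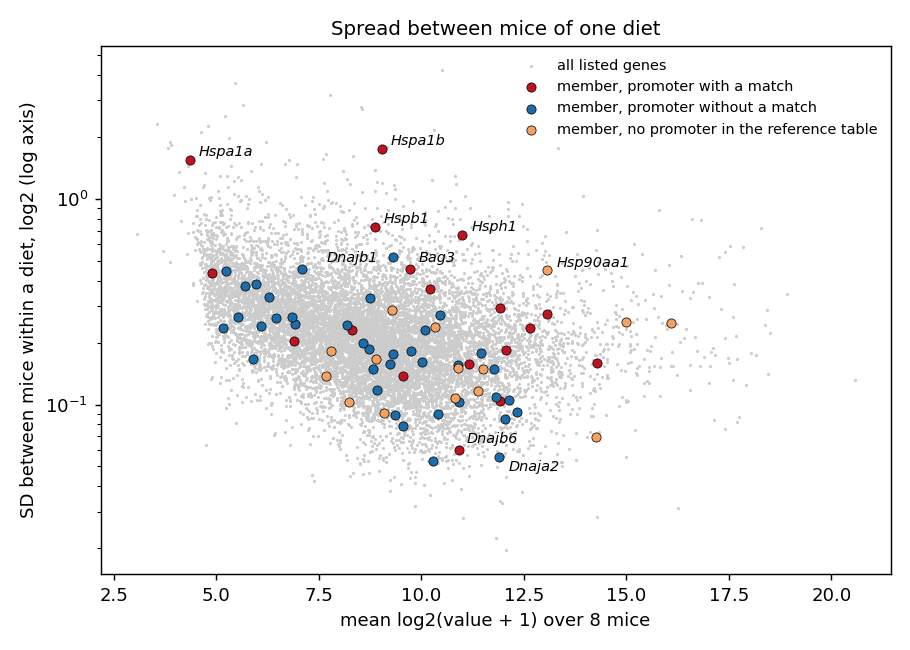
SD between mice of a diet on the log2 scale (vertical, log axis) against the mean log2(value + 1) over 8 mice (horizontal), for all listed genes in grey and the 71 members coloured by whether their promoter held a heat shock element match. Hspa1b and Hspa1a lie above most grey points, at SDs of 1.74 and 1.55 and the 99.8th percentile, while Dnajb6, with a match, lies near its lower edge at 0.06.

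Chaperone genes that are not members were similar in having no calls. Of 31 further cytosolic co-chaperones and related genes 30 were listed, with a median difference of -0.053 and none with an unadjusted p under 0.05. Among 9 mitochondrial chaperones and proteases the median was 0.0021, and 1 had an unadjusted p under 0.05, Grpel2, the exchange factor of mitochondrial Hsp70. It read 2177, 3697, 2452 and 2238 in Control and 3090, 4738, 3978 and 2973 in Low AA mice, a difference of 0.49 (SE 0.20, unadjusted p = 0.0308, adjusted p = 0.357 by limma). F2212 was higher than 2 of the Low AA mice. The 10 endoplasmic reticulum chaperones, which answer to unfolded protein in that compartment rather than to HSF1, all had differences below 0, with a median of -0.25 and a smallest unadjusted p of 0.0678. In these 10 H828 was the highest Low AA mouse in 7, against 27.8% of all genes. F129 was the highest Control mouse in 7, against 21.1%, and H828 and H817 were the highest pair in 3, against 18.9%. The median log2 deviation over these 10 was 0.41 in F129, 0.19 in H828, -0.14 in H817 and -0.58 in H1126. In the 30 cytosolic co-chaperones the pair was highest in 43.3%. F2212 was the highest Control mouse in 16 of these 30 and in 7 of the 9 mitochondrial genes, against 30.9% of all genes.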

How the data were processed

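Poly(A) RNA of 8 livers, 4 per diet, was read from 1 table of 11784 genes with 1 column per mouse. The signal that the authors deposited is a read count after scaling and rounding. The sources used here do not give the scaling, which was inferred from gaps and doublings among low whole numbers. The submitters' processing notes name bcl2fastq 1.8.2, STAR 2.5.0a, RSEM 1.2.6, edgeR 3.10.5, R 3.2.1 and build mm10. Libraries were stranded. Every listed gene had at least 28 in its third-highest mouse. The fold change and FDR columns hold the authors' own comparison and were not used.

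Because values were scaled, the count model of the authors' methods was not used. A pseudocount of 1 was added before taking log2, and diets were compared by limma 3.58.1 (R 4.3.3), using a mean-variance trend, Benjamini-Hochberg adjustment over all genes and a threshold of 0.05, after the fit had been tested on simulated data. Depth is known only after scaling, so no counting interval is given. In no pair of mice did more than 0.942% of genes have identical values. Levels per kb divide by the merged exon length in GENCODE vM21. Promoters came from RefSeq on GRCm38.p6, the assembly to which mm10 corresponds. Protein sequences were not used here.

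The members and lists were chosen with earlier results of these data known. Genes named were members called, with an unadjusted p under 0.05 or without overlap, the 5 largest rises and falls, Hsf1, the inducible list, CCT, Hsp90, Hsp70, Hsp110, small heat shock and BAG members, and, from the other chaperone lists, genes called or with an unadjusted p under 0.05. Dnajb6 and Cryab fall outside this rule. Alternatives were pseudocounts of 0.1 and 5, genes with a mean of at least 100, 2 rescalings, no trend, an adjusted p under 0.1 and leaving out each mouse. Many chaperone genes have processed pseudogenes, and reads shared with these or between Hspa1a and Hspa1b are uncertain. Kupffer cell and sinusoidal endothelial markers, 4 listed of 5 and 4 of 4, had none with an unadjusted p under 0.05.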

Additional observations from a re-analysis of the deposited data

Results flagged for a closer look

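In 90 groups of 4 mice, the gap of the highest or lowest mouse from its neighbour, relative to the whole range, was set against Dixon's 95% critical value. The gap was larger than this value in 3 groups on the log2 scale and in 7 on the scale of the deposited values. Chance gives this in about 1 of 20 groups where values are normally distributed. The groups are genes measured in the same 8 mice, so they are not independent and the counts are a description. For Hspa13 the Low AA mouse H828, at 743 against 520 to 534 in the others, had a gap of 0.926 of the range on the log2 scale and 0.937 on the linear scale. For Bag6 the same mouse, at 2101 against 1845 to 1865, had gaps of 0.917 and 0.922. For Hspa9 the Control mouse F2212, at 18244 against 19367 to 19597, had gaps of 0.835 and 0.830. Passing on the linear scale alone were the Control mouse F129, highest in Hspa1b with a gap of 0.913, in Hspa1a with 0.911 and in Hspd1 with 0.832, and the Low AA mouse H828, highest in Hspb1 with 0.854. The linear scale was added after the values had been seen.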

How the results depend on the processing

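No member was called in any alternative, and 25 of the 44 named members kept their sign in every alternative that held them, of 14. The genes called among all 11784 numbered 47, and 28 with a mean of at least 100, 30 without a mean-variance trend and 132 at an adjusted p under 0.1. Leaving out 1 mouse, they numbered 16 (without H817) to 77 (without F2212), with 29 without F129, 21 without H1126 and 19 without H828. The members without overlap then numbered 3 to 8, with 6 without F129, 5 without H1126, 7 without H828 and 8 without H1315, while 7.98% to 12.7% of all genes had none in such fits. The log2 fold changes of 19 named members changed sign in at least 1 alternative, and leaving out 1 mouse gave ranges of Hspa2 -0.34 to 0.12, Dnajb1 -0.12 to 0.30, Hspa1l -0.0075 to 0.26, Hspa1b -0.031 to 1.33, Bag3 -0.30 to 0.04, Dnajb4 -0.091 to 0.22, Bag1 -0.0016 to 0.14, Cct4 -0.12 to 0.021, Tcp1 -0.0028 to 0.093, Hsp90ab1 -0.22 to 0.035, Hspe1 -0.12 to 0.15, Cct3 -0.11 to 0.037, Cct7 -0.12 to 0.044, Hspa12a -0.021 to 0.12, Dnaja1 -0.11 to 0.12, Hsph1 -0.51 to 0.062, Hsp90aa1 -0.32 to 0.097, Cct6a -0.075 to 0.07 and Cct8 -0.045 to 0.032. Cct6a, -0.0011, also became 0.0024 with equal column totals and 0.0029 with median ratio scaling. The cause was not tested. No paired analysis was possible because no mouse code or number links a Control to a Low AA animal. With 4 mice per diet the intervals of Hspa1b and Hspa1a, with SDs of 1.74 and 1.55, are too wide to bound their diet difference.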
